A study of Mus musculus with 48 samples.

Results

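The transcripts described here are those of the insulin-like growth factor (IGF) axis measured in mouse lung, together with H19. They are the 10 genes Igf1, Igf2, Igf1r, Igfbp2, Igfbp3, Igfbp4, Igfbp5, Igfbp6, Igfbp7 and H19, which were taken by symbol from the 47561 genes of the expression table. All 10 had 1 row each and passed the filter on low values. The members were chosen with their levels by strain, injection and air already known, so their values in those comparisons are given as a description without a test. Sex was not used in the choice, and members were tested for it.

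The lungs of 48 mice were sequenced as polyA-selected RNA, with 1 library per mouse and 3 mice in each of 16 groups. The groups crossed 2 inbred strains (C3H/HeN, called C3H, and C57Bl/6, called C57B) with sex, with 1 intraperitoneal injection of saline or of aurothioglucose (ATG, a gold compound known to inhibit thioredoxin reductase) at 25 mg/kg, and with room air or hyperoxia (more than 95% oxygen) for 96 h. All mice were adults and every mouse was injected, so saline in room air is the baseline. C3H and C57B are each 1 inbred strain, and C57B is given as different substrains in the sources used here. Values are FPKM, fragment counts divided by transcript length and by the mapped fragments of the library. The sum of FPKM was between 510933 and 748290 per lung. Scgb1a1, a club cell transcript, made up 1.2% to 7.2% of that sum in hyperoxia and 10.4% to 30.2% in room air, which enters the scale of every other gene. Transcripts of the surfactant-producing alveolar type 2 cell summed to between 5760 and 49400 FPKM, as fits the lung label.

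IGF-1 and IGF-2 are secreted growth factors that signal through the IGF-1 receptor, a tyrosine kinase, to the PI3K-AKT pathway. Most IGF outside cells is bound to one of a family of IGF binding proteins, which hold it away from the receptor or deliver it, and proteases release it by cutting the binding protein. Igf2 and H19 are imprinted neighbours that share enhancers. Igf2 is expressed from the paternal allele and H19, a long noncoding RNA that also carries a microRNA, from the maternal allele, and both are abundant in the fetus and low in most adult tissues.

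In GRCm38, the assembly also called mm10, H19 is annotated at chr7:142575529-142578143 and Igf2 at chr7:142650766-142666816, both on the minus strand and 72622 bases apart. Igfbp2 (chr1:72824503-72852474, plus strand) and Igfbp5 (chr1:72857932-72874884, minus strand) lie 5457 bases apart. Igfbp3 is at chr11:7206086-7213923 on the minus strand, 3539 bases from Igfbp1, which was listed at 0 in all 48 lungs. The others are Igf1 (chr10:87858265-87937042, plus), Igf1r (chr7:67952827-68233668, plus), Igfbp4 (chr11:99041244-99054392, plus), Igfbp6 (chr15:102144362-102149511, plus) and Igfbp7 (chr5:77349240-77408041, minus). Of the 30-base sequences of Igf2, 61.9% also occur in the overlapping annotated gene Gm49394, which has no row in the table, and 0.3% occur in any other gene. The share was 6.1% for Igfbp4, 2.1% for H19 and at most 0.3% for the rest. How the authors' counting treated such reads is not given in the sources used here. Igfbp7 overlaps Polr2b on the opposite strand, which was listed at up to 17.4 FPKM.

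H19 RNA is the precursor of miR-675, and the hairpin is shown because H19 was the member with the largest hyperoxia difference in C3H on the log2(FPKM + 1) scale. The hairpin lies at chr7:142577064-142577147 on the minus strand, at bases 997 to 1080 of the longest annotated H19 transcript (2286 bases), inside its exon 1. It is written 5′ to 3′ with its mature arms in capitals. In the mature arms the capitals mark the seed, bases 2 to 8. These sequences are those of RefSeq and of the GRCm38 reference, which was made from C57BL/6J. The table lists Mir675 at 0 in all lungs. The microRNA itself is not captured by polyA selection, so its level was not measured.
Mir675 hairpin: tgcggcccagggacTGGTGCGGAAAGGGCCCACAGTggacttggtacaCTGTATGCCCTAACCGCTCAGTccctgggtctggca
mmu-miR-675-5p: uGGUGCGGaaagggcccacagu
mmu-miR-675-3p: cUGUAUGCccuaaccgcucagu

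Promoter windows from RefSeq on GRCm38, from 250 bases before to 50 bases after an annotated start, were found for 9 of the 10 members, and H19 had none. Those of Igf1 and Igfbp4, whose mean log2 differences in hyperoxia were above 0 in both strains, and of Igfbp3 and Igfbp6, for which they were below 0 in both strains, are shown so that the letters can be compared. Capitals mark the letters TATAAA or their reverse complement TTTATA. The windows are chr10:87860861-87861160 (plus strand) for Igf1, chr11:99040994-99041293 (plus) for Igfbp4, chr11:7213874-7214173 (minus) for Igfbp3 and chr15:102143936-102144235 (plus) for Igfbp6.
Igf1: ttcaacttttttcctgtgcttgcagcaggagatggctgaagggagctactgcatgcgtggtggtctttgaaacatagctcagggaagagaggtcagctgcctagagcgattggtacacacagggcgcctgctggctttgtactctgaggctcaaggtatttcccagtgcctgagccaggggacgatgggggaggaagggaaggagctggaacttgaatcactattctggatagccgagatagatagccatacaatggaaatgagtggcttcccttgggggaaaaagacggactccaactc
Igfbp4: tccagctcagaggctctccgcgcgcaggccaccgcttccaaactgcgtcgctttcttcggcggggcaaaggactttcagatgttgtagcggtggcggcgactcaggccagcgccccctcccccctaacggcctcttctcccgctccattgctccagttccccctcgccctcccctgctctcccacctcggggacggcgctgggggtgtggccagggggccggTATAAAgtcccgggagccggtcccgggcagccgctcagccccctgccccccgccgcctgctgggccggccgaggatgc
Igfbp3: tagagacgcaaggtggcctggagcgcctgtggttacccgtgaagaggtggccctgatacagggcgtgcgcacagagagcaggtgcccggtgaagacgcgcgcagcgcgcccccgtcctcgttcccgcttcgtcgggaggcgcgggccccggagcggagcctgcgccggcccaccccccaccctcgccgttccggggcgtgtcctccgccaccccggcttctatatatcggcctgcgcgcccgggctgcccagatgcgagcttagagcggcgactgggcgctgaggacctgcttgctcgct
Igfbp6: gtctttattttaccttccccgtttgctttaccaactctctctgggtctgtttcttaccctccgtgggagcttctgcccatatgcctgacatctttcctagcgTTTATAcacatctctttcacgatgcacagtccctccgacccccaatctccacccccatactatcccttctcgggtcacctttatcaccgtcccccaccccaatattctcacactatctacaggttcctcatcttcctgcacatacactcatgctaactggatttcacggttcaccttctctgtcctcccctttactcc

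TATAAA was found at base 223 of the Igfbp4 window, and its reverse complement TTTATA at base 103 of the Igfbp6 window. Either strand of TATAAA is present in 13.6% of all 32851 windows. The Igf1 and Igfbp3 windows held none of the other letters searched on both strands. These were the GC box GGGCGG, present in 5 of the 13 member windows and in 35.7% of all windows, ACGTG, the core of the hypoxia response element, in 3 of 13 and 19.6%, the FOXO core TGTTTAC in 0 of 13 and 3.6%, the AP-1 core TGACTCA in 1 of 13 and 5.2%, and the E-box CACGTG, which contains ACGTG, in 1 of 13 and 7.2%. The GC content was 71.3% in the Igfbp4 window and 71.7% in the Igfbp3 window, 52.3% in the Igf1 window and 49.7% in the Igfbp6 window, beside a median of 52.7% over all windows.

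The binding proteins were expressed at much higher levels than the ligands. Over the 48 lungs the median level was 670 FPKM for Igfbp7, 303 for Igfbp2, 152 for Igfbp6, 136 for Igfbp4, 80.8 for Igfbp5 and 45.0 for Igfbp3. Igf1 followed with a median of 7.3 FPKM, Igf1r with 5.74, Igf2 with 3.27 and H19 with 0.672. Neighbours in this order overlapped in their ranges over the lungs, from Igfbp7 (372 to 1080 FPKM) and Igfbp2 (67.8 to 611) down to Igf2 (0.965 to 7.64) and H19 (0 to 14.6). H19 reached 1 FPKM in 18 lungs and was listed at 0 in 6, and no other member was at 0 in any lung. The sequencing depth behind these FPKM values is unknown, so a value of 0 carries no counting limit.

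The first comparison asked how the members differed between hyperoxia and room air in each strain, over 12 mice a group. H19 was lower in hyperoxia in both strains. In C3H, H19 was between 4.36 and 14.6 FPKM in room air, with a median of 6.48, and between 0.234 and 2.01 in hyperoxia, with a median of 0.675. The 2 ranges did not overlap, and the mean was 10.1-fold lower in hyperoxia, at 0.756 against 7.65 FPKM. The log2 difference, which here and throughout is on the scale of log2(FPKM + 1), was -2.25 ± 0.21 (SE). In whole lung, fewer cells of a type and less RNA per cell cannot be told apart.

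In C57B, H19 in room air was between 0.184 and 1.35 FPKM in 11 of the 12 mice, with a median of 0.566, and stood at 8.65 in the other, a female given saline (mouse 37). In hyperoxia it was listed at 0 in 6 mice, and the other 6 had 0.0943, 0.182, 0.214, 0.442, 0.466 and 0.514 FPKM. All 12 were below the room-air median and 8 were below every room-air mouse, so the ranges overlapped. The log2 difference was -0.73 ± 0.21, and -0.50 ± 0.15 without mouse 37. With 0.1 in place of 1 added to the FPKM, which weighs low values more, it was -2.10 in C57B and -3.25 in C3H.

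In room air H19 was higher in C3H than in C57B in every mouse but mouse 37. The log2 difference between the strains was 2.10 ± 0.21 with overlap, and 2.33 ± 0.15 without mouse 37. Mouse 37 was left out because of its H19 value. The smaller SE and the lack of overlap without it follow from that choice. Mouse 37 was also the mouse with skeletal muscle transcripts. The 8 skeletal muscle markers listed summed to 1077 FPKM in it and to between 4.13 and 15.4 in the 5 other C57B mice given saline in room air, with Acta1, skeletal alpha-actin, at 326 against at most 0.954 FPKM and Ckm, muscle creatine kinase, at 264 against at most 8.24. Over the 12 C3H room-air mice the same sum was between 3.92 and 118 FPKM. In the C3H mice of highest H19, mouse 2 with 14.6 FPKM and mouse 6 with 14.1, it was 22.4 and 82.5. The part of muscle tissue in the H19 value of mouse 37 was not tested. In hyperoxia the strains overlapped in H19, with a log2 difference of 0.58 ± 0.21. At such low levels the added 1 shrinks the log2 difference. The C3H mean was 4.74-fold the C57B mean in hyperoxia, at 0.756 against 0.159 FPKM, and 5.7-fold in room air with mouse 37 included. The room-air mean was 7.65 FPKM in C3H, and in C57B 1.34 with mouse 37 and 0.678 without it. Within C57B the H19 mean was 8.42-fold lower in hyperoxia than in room air, with mouse 37 included.

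Igf2, the fetal growth factor, had lower means in hyperoxia in both strains and overlapped between the groups. In C3H it was between 2.73 and 7.64 FPKM in room air (median 4.16) and between 0.978 and 4.38 in hyperoxia (median 2.18). In C57B it was between 2.02 and 5.54 in room air (median 3.49) and between 0.965 and 6.39 in hyperoxia (median 2.53). The log2 differences were -0.79 ± 0.18 and -0.41 ± 0.18. Of the 12 mice in hyperoxia, 8 in C3H and 4 in C57B were below every room-air mouse of their strain. Unlike H19, Igf2 differed little between the strains in room air, by 0.27 ± 0.18, and mouse 37, at 5.10 FPKM, was within the range of its group. The difference between the 2 genes was not tested.

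**Figure D1:**
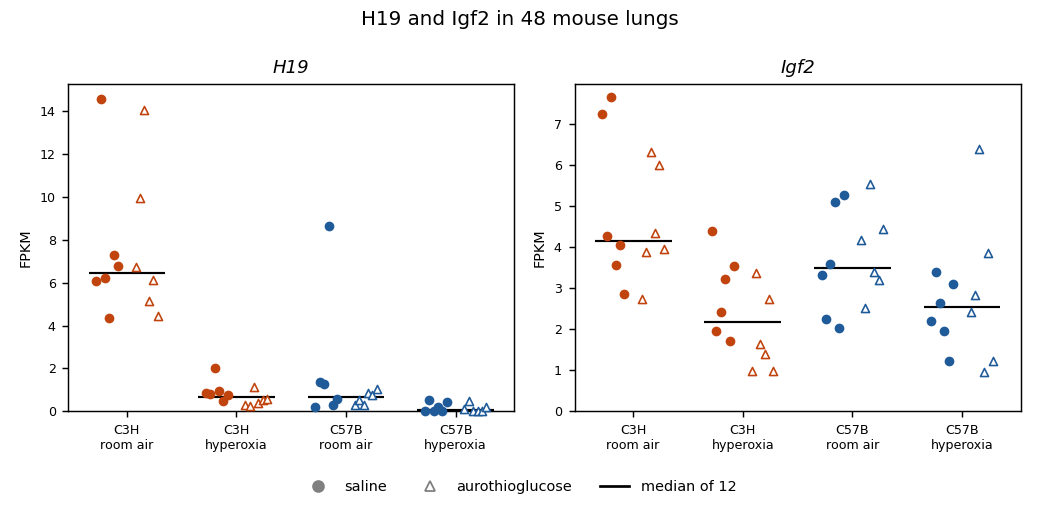
FPKM of H19 (left) and Igf2 (right) in each of 48 lungs, by strain and air, with filled circles for saline, open triangles for ATG and a bar at the median of the 12 mice. The C3H room-air mice lie between 4.36 and 14.6 FPKM of H19 and all C3H hyperoxia mice at or below 2.01, and the single high C57B room-air point, at 8.65, is mouse 37.

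Igf1 had higher means in hyperoxia. In C3H it was between 3.59 and 8.94 FPKM in room air (median 6.40) and between 5.50 and 19.4 in hyperoxia (median 9.39). In C57B it was between 2.02 and 9.90 in room air (median 4.70) and between 4.82 and 17.8 in hyperoxia (median 10.7). The groups overlapped, and 7 of the 12 C3H mice and 8 of the 12 C57B mice in hyperoxia were above every room-air mouse of their strain. The log2 difference was 0.59 ± 0.14 in C3H and 1.02 ± 0.14 in C57B. In the saline mice alone it was 0.11 in C3H and 0.80 in C57B. Igf1r, which encodes the receptor, had slightly lower means in hyperoxia in both strains. In C57B the Igf1r mean went from 7.84 to 5.03 FPKM in females and from 5.12 to 5.17 in males. Its range was 5.44 to 8.99 FPKM in room air and 4.12 to 6.87 in hyperoxia in C3H, and 3.53 to 8.66 and 3.62 to 5.70 in C57B, and all 12 hyperoxia mice of each strain were below their room-air median. The log2 differences were -0.32 ± 0.08 and -0.27 ± 0.08.

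**Figure D2:**
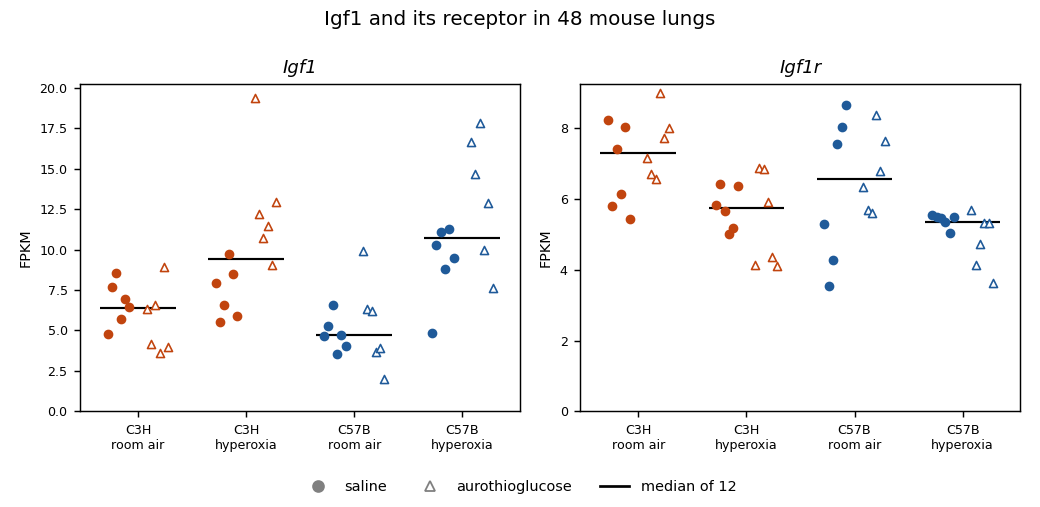
FPKM of Igf1 (left) and Igf1r (right) in each of 48 lungs, by strain and air, with filled circles for saline, open triangles for ATG and a bar at the median of 12. The Igf1 medians are 6.40 and 9.39 in C3H and 4.70 and 10.7 in C57B for room air and hyperoxia, and the Igf1r points in hyperoxia lie below the room-air medians.

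Among the binding proteins, Igfbp6, which prefers IGF-2, was lower in every hyperoxia mouse than in any room-air mouse of its strain. It was between 141 and 428 FPKM in room air (median 215) and between 39.0 and 110 in hyperoxia (median 68.2) in C3H. In C57B it was between 240.0 and 405 (median 324) and between 74.7 and 162 (median 118). The log2 differences were -1.59 ± 0.14 and -1.47 ± 0.14, or 3.06-fold and 2.75-fold lower means. Thus 2 of 10 members, H19 and Igfbp6, did not overlap between the air groups in C3H, where 8.61% of the 16994 genes tested did not, and 1 of 10, Igfbp6, in C57B, where 19.8% did not. All of these members were lower, and the shares of genes with no overlap that were lower were 2.27% and 8.62%. These contrasts were used in choosing the members, so nothing is read from the counts.

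Igfbp3, the main IGF carrier of plasma, was lower in C3H and spread widely in C57B. In C3H it was between 30.9 and 76.5 FPKM in room air (median 50.2) and between 8.79 and 45.2 in hyperoxia (median 13.2), and 11 of the 12 hyperoxia mice were below every room-air mouse. In C57B it was between 39.0 and 75.0 in room air (median 58.6) but between 5.18 and 121 in hyperoxia (median 38.1), with 6 mice below and 2 above every room-air mouse. The log2 differences were -1.67 ± 0.23 and -0.69 ± 0.23, and in the saline mice alone -1.37 and -0.17. In hyperoxia Igfbp3 was lower in C3H than in C57B by a log2 difference of -1.10 ± 0.23, with overlap, while in room air the strains differed by -0.13 ± 0.23.

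Igfbp5, which binds to the extracellular matrix, was between 66.2 and 257 FPKM in room air and between 31.4 and 124 in hyperoxia in C3H, with medians of 107 and 55.9. In C57B it was between 42.6 and 215 and between 29.3 and 105, with medians of 91.4 and 65.9. The groups overlapped, with log2 differences of -1.08 ± 0.21 and -0.55 ± 0.21. Igfbp4 was the binding protein with higher means in hyperoxia in both strains. It was between 58.9 and 171 FPKM (median 151) and between 109 and 246 (median 193) in C3H, and between 63.1 and 106 (median 84.6) and between 96.2 and 188 (median 136) in C57B. Its log2 differences were 0.48 ± 0.12 and 0.67 ± 0.12, and 11 of the 12 C57B hyperoxia mice were above every C57B room-air mouse. In C3H, 2 saline males in room air were low and the others lay between 104 and 171 FPKM.

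Igfbp2 differed in direction between the strains. In C3H it was between 208 and 611 FPKM in room air (median 348) and between 67.8 and 589 in hyperoxia (median 315). In C57B it was between 112 and 323 in room air (median 224) and between 199 and 485 in hyperoxia (median 357). The log2 difference was -0.35 ± 0.22 in C3H, with 5 of 12 hyperoxia mice above the room-air median, and 0.74 ± 0.22 in C57B, with 11 of 12 above it. Without the C3H female of 67.8 FPKM (mouse 33) the value in C3H was -0.14. Igfbp7, the most abundant member and a vascular matrix protein with weak affinity for IGFs, had the smallest differences in the main fit. It was between 532 and 1078 FPKM and between 545 and 828 in C3H, and between 512 and 709 and between 372 and 721 in C57B, with log2 differences of -0.26 ± 0.07 and -0.11 ± 0.07. This rank depended on the scaling. Under quantile normalization the Igfbp7 difference was -0.503 in C3H, beside 0.255 for Igfbp4. In C57B it was -0.283, beside -0.188 for Igf1r.

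**Figure D3:**
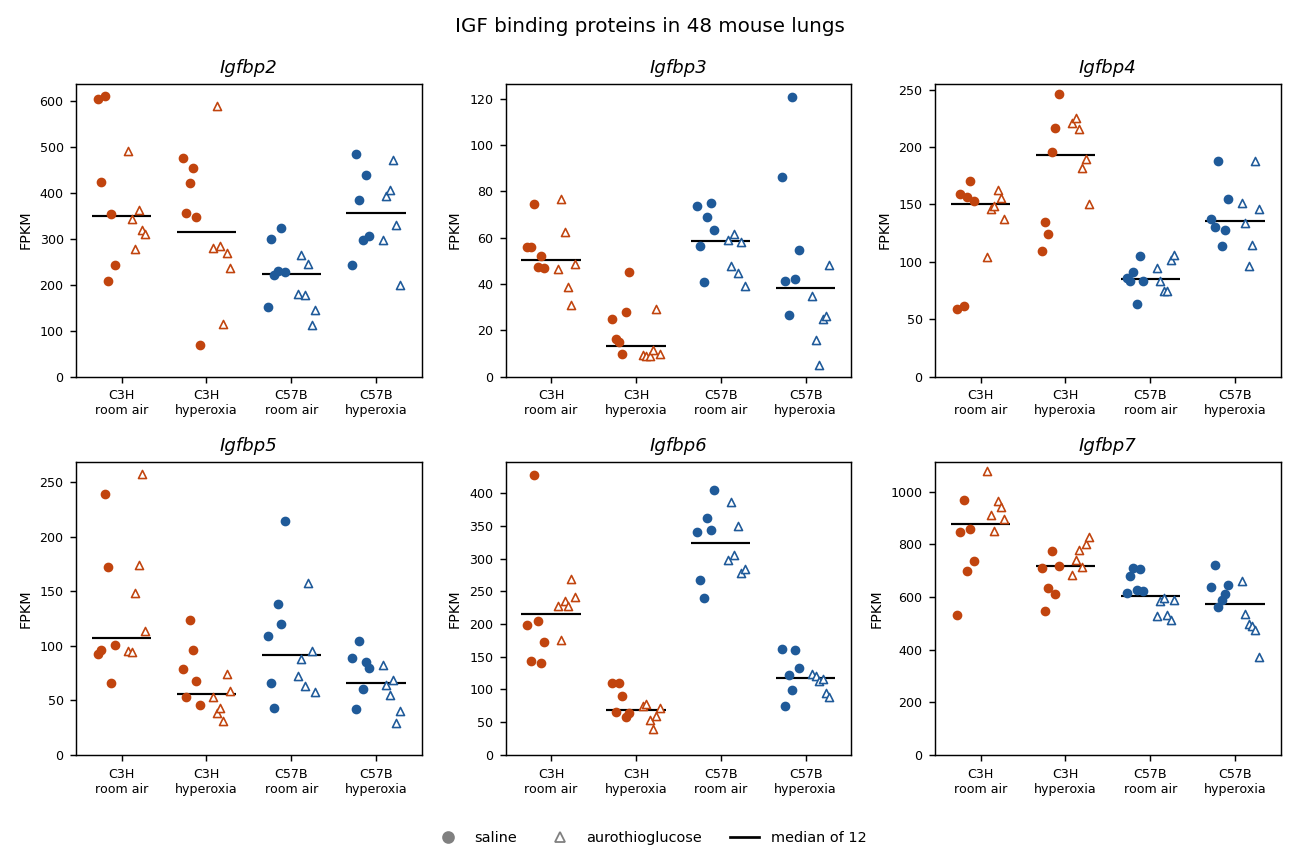
FPKM of the 6 binding proteins in each of 48 lungs, by strain and air, with filled circles for saline, open triangles for ATG and a bar at the median of 12. In Igfbp6 the room-air and hyperoxia points of each strain do not overlap (141 to 428 against 39.0 to 110 FPKM in C3H), and in Igfbp3 the C57B hyperoxia points run from 5.18 to 121 FPKM.

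The second comparison took the effect of hyperoxia in C3H minus that in C57B. It was -1.53 ± 0.29 for H19 and -1.76 ± 0.20 without mouse 37, -1.08 ± 0.31 for Igfbp2, -0.97 ± 0.33 for Igfbp3, -0.54 ± 0.30 for Igfbp5 and -0.43 ± 0.19 for Igf1. For Igf2 it was -0.38 ± 0.25, and the other 4 members were between -0.19 and -0.06. With 0.1 in place of 1 added to the FPKM, the H19 value was -1.15. The median over all 16994 genes was 0.10 and became 0.00 after scaling by median ratios. All 10 members kept the sign of their hyperoxia differences under quantile normalization and under median ratio scaling.

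At baseline, in the 12 saline mice in room air, the strain comparison gave values of the same kind. Without a test, the log2 difference of C3H minus C57B was 1.85 ± 0.45 for H19, 0.67 ± 0.19 for Igfbp2, 0.45 ± 0.22 for Igfbp4, 0.40 ± 0.14 for Igf1 and -0.70 ± 0.22 for Igfbp6. Without mouse 2, a C3H male, the Igfbp4 value was 0.22. None of the 10 members was free of overlap between the strains, where 5.98% of the 15546 genes tested were. Over saline and ATG mice together, 0 of 10 were free of overlap in room air (2.82% of all genes) and 0 of 10 in hyperoxia (3.98%). Without mouse 37, H19 was free of overlap at baseline and in room air, which follows from leaving out the 1 overlapping mouse. Strain was used in choosing the members, so nothing is read from these counts. Over the 24 room-air mice of both injections Igfbp7 was higher in C3H by 0.48 ± 0.07 and Igfbp6 lower, at -0.58 ± 0.14.

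Cell type markers moved with air in the same lungs, those of lung epithelium among them, and not all lists are described. The summed alveolar type 2 markers went from a median of 29000 to 12400 FPKM in C3H and from 39200 to 10100 in C57B. The club and ciliated sum went from 98500 to 33400 and from 126000 to 13600. The endothelial sum went from 1760 to 1560 and from 1260 to 928, and the alveolar macrophage sum from 373 to 354 and from 663 to 1240. The summed fibroblast markers had a median of 3890 FPKM in C3H room air (range 3410 to 4560) and 1420 in hyperoxia (769 to 3030), and of 2650 (2140 to 3570) and 928 (503 to 1080) in C57B. Of the 10 fibroblast markers, 4 fell and 2 rose in C3H and 5 fell and 2 rose in C57B, by limma with Benjamini-Hochberg adjustment. These are 60% and 70% of the list, near the 55.2% and 66% of all genes that passed. The pericyte sum went from a median of 181 to 74.1 in C3H and from 125 to 43.5 in C57B, and of its 6 markers 4 fell and 1 rose in C3H and 4 fell and 2 rose in C57B. The smooth muscle sum went the other way, from 263 to 412 and from 260.0 to 635, with 5 and 6 of its 7 markers risen and 0 fallen. The sum over recruited monocyte and macrophage markers, of whose 10 markers 10 and 9 rose, went from 395 to 711 and from 291 to 538. The cardiac muscle sum was between 13.8 and 1560 FPKM in C3H room air and between 5.86 and 89.0 in hyperoxia, and between 12.8 and 339 and between 9.57 and 23.5 in C57B, and 6 of 8 markers fell in each strain. No gene of these lists was at 0 in all lungs. The part of these cell types in the members' values was not tested.

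The third comparison asked how ATG differed from saline within each air condition, over 12 mice a group. In hyperoxia Igfbp3 was lower with ATG. It was between 9.71 and 121 FPKM after saline (median 34.7) and between 5.18 and 48.0 after ATG (median 13.6). The groups overlapped, and the log2 difference was -1.04 ± 0.23. By strain it was -0.77 ± 0.33 in C3H, where 5 of the 6 ATG mice were at or below 11.5 FPKM and the other at 29.1, and -1.31 ± 0.33 in C57B, where the medians were 25.5 after ATG and 48.4 after saline.

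Igf1 was higher with ATG in hyperoxia. It was between 4.82 and 11.2 FPKM after saline (median 8.63) and between 7.63 and 19.4 after ATG (median 12.6), a log2 difference of 0.58 ± 0.14 with overlap. By strain the difference was 0.69 ± 0.19 in C3H and 0.46 ± 0.19 in C57B. In C57B the means after ATG and saline were 16.4 and 8.73 FPKM in males but 10.15 and 9.84 in females, with 3 mice each. In C3H they were 14.1 and 6.66 in males and 11.1 and 8.04 in females. Igfbp5 had a log2 difference of -0.53 ± 0.21 and Igfbp6 of -0.27 ± 0.14, and the other 6 members were between -0.22 and 0.11. None of the 10 was free of overlap, as was 0% of all genes.

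In room air the ATG differences of all 10 members were between -0.25 and 0.18, with none free of overlap (0.00588% of all genes). Within C57B room air alone, Igfbp7 was the 1 of 10 without overlap, at 512 to 597 FPKM after ATG and 614 to 709 after saline in 6 mice each, with a log2 difference of -0.25 ± 0.11, where 0.147% of all genes were free of overlap. In C3H room air the Igfbp7 difference was 0.30 ± 0.11, in the other direction and with overlap. None of the members was free of overlap with ATG in C3H room air (0.0942%), C3H hyperoxia (1.6%) or C57B hyperoxia (1.14%). Strain, injection and air were used in choosing the members, so nothing is read from these counts.

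**Figure D4:**
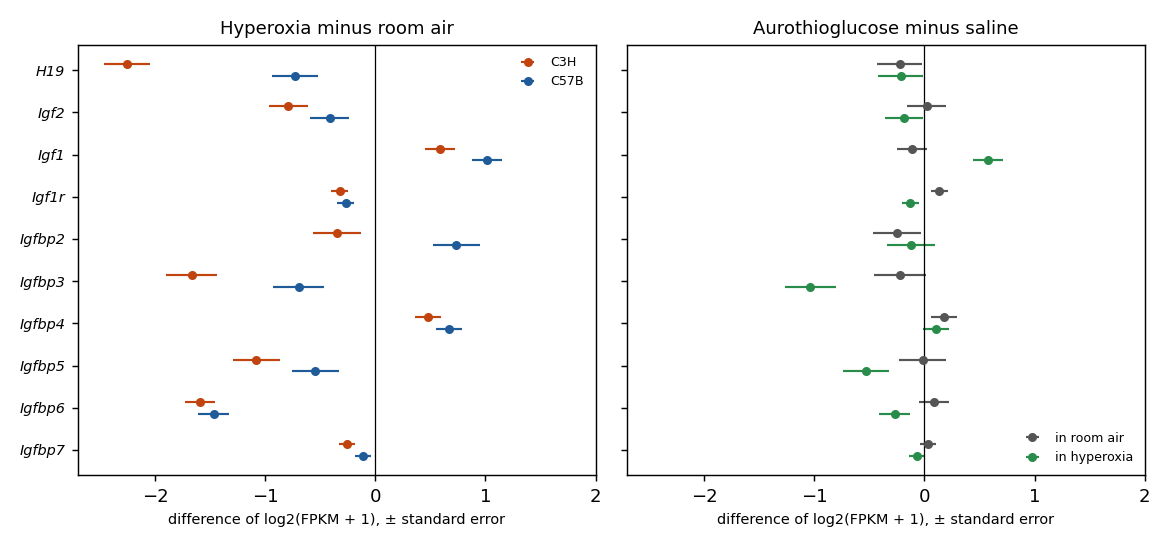
Differences of log2(FPKM + 1) with their standard errors from the fit over 48 mice, for hyperoxia minus room air in each strain (left) and for ATG minus saline in each air condition (right). H19 is at -2.25 in C3H and -0.73 in C57B, Igfbp2 lies on opposite sides of 0 in the strains, and Igfbp3 (-1.04) and Igf1 (0.58) are farthest from 0 for ATG in hyperoxia.

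For sex, Igf1r was the 1 of the 10 members past the threshold, in the difference of the hyperoxia effect between males and females. In females Igf1r was between 5.44 and 8.99 FPKM in room air (median 7.86) and between 3.62 and 6.36 in hyperoxia (median 5.25). In males it was between 3.53 and 8.24 in room air (median 6.07) and between 4.13 and 6.87 in hyperoxia (median 5.60). The lowest room-air mice were the 3 C57B males given saline, at 3.53, 4.29 and 5.28, while the 3 C57B females given saline were at 7.57, 8.02 and 8.66. The effect in males minus that in females was 0.41 ± 0.11 on the log2 scale (adjusted p = 0.0303, limma over 48 mice), where 4.16% of all genes passed. The median of all genes in this contrast was 0.08 in the same direction. The call was lost under median ratio scaling (0.32, adjusted p = 0.131), under quantile normalization (0.32, adjusted p = 0.151), in the 24 saline mice alone (0.40, adjusted p = 0.2), and without mouse 14 (0.38, adjusted p = 0.05) or mouse 48 (0.37, adjusted p = 0.0547), over which the limma adjusted p was between 0.0108 and 0.0547 for single mice left out.

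Over all 48 mice 0 of 10 members passed for sex, where 12.4% of all genes did. The nearest were Igfbp2, with higher means in males by 0.42 ± 0.15 (adjusted p = 0.066), Igf1 by 0.26 ± 0.10 (adjusted p = 0.069) and Igfbp4, at -0.22 ± 0.08 (adjusted p = 0.0804), all by limma. Their unadjusted p-values from limma were 0.00977, 0.0105 and 0.0133, and 26.7% of all genes had one under 0.05. This count of 0 depended on the setting. By limma, Igf1 passed under quantile normalization (adjusted p = 0.0193) and median ratio scaling (adjusted p = 0.0351). In the 24 saline mice alone the Igf1 difference was -0.003 (limma adjusted p = 0.994). With single mice left out, Igf1 passed in 4 of 48 fits (limma adjusted p from 0.0207 to 0.115 over all of them), Igfbp2 in 5 (0.0241 to 0.111) and Igfbp4 in 2 (0.00321 to 0.132), the lowest of these without mouse 19, mouse 31 and mouse 2. Igfbp3 did not pass for sex by hyperoxia but did in 3 such fits, without mouse 19, mouse 22 or mouse 31 (limma adjusted p from 0.0386 to 0.181). At baseline 0 of 10 passed by limma, where 0.669% of all genes did. Of the 10, 1 had an unadjusted limma p under 0.05, where 23.3% of all genes had. It was Igf1r at -0.33 ± 0.13 (0.028, adjusted p = 0.175). Igf1r passed at baseline within the fit of 48 mice (limma adjusted p = 0.0497), and Igfbp4 without mouse 2 (-0.66, limma adjusted p = 0.00643).

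The other genes of the pathway came from 6 lists of 71 genes, of which 58 were tested. The lists were chosen with earlier results of these data known. Their counts and shares, here and below, are therefore a description, and no excess over all genes is read from them. In C3H 25 rose and 18 fell in hyperoxia (74.1%, against 55.2% of all genes), and in C57B also 25 rose and 18 fell (74.1% against 66%). These counts, and those of 58 genes below, include Pappa and Pappa2. Both reached 1 FPKM only in hyperoxia lungs, so the filter itself favoured a rise in them. The median difference over the lists was 0.08 in both strains, beside 0.09 and -0.03 over all genes. Socs3, which blocks cytokine and growth hormone receptor signaling, rose in C3H from a median of 12.2 to 85.6 FPKM (2.39 ± 0.22, adjusted p = 1.62e-11) and in C57B from 18.1 to 57.1 (2.00 ± 0.22, adjusted p = 5.59e-10). Both IGF2 mRNA binding proteins that were tested rose in each strain, among them Igf2bp2 in C3H from a median of 3.49 to 10.2 FPKM (1.24 ± 0.10, adjusted p = 3.33e-13) and Igf2bp1 from 0.569 to 2.34 (1.11 ± 0.16, adjusted p = 3.04e-07).

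Of the 15 tested genes of the imprinted gene network, 9 fell and 3 rose in C3H and 7 fell and 4 rose in C57B. Nnat, an imprinted membrane protein gene, fell from a median of 19.3 to 4.38 FPKM in C3H (-2.01 ± 0.14, adjusted p = 2.74e-14) and from 16.2 to 3.28 in C57B (-2.06 ± 0.14, adjusted p = 4.67e-15), and the groups did not overlap in either strain. Mest fell in C3H from 23.2 to 6.55 (-1.69 ± 0.13, adjusted p = 6.93e-14), and Meg3, an imprinted noncoding RNA, in C57B from 2.40 to 0.323 (-1.14 ± 0.23, adjusted p = 5.1e-05). Of the 7 tested carriers and proteases, 3 rose and 2 fell in C3H and 3 rose and 3 fell in C57B. Among the 7 were Pappa and Pappa2, at most 0.191 and 0.767 FPKM in room air. They passed the filter only through hyperoxia lungs, so nothing is read from the rises in this list. Htra3, a secreted serine protease, fell in C3H from 9.30 to 4.79 (-0.79 ± 0.16, adjusted p = 5.96e-05) and in C57B from 9.70 to 2.63 (-1.53 ± 0.16, adjusted p = 1.28e-10). Stc2, stanniocalcin 2, which inhibits the protease pappalysin, rose in C57B from 0.649 to 4.34 (1.71 ± 0.12, adjusted p = 3.6e-15).

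In the PI3K-AKT-FOXO arm 10 of 20 rose and 3 fell in C3H and 11 rose and 4 fell in C57B. Eif4ebp1, a repressor of translation that mTOR phosphorylates, rose in C57B from a median of 33.5 to 105 FPKM without overlap (1.62 ± 0.05, adjusted p = 2.29e-24). Of the 8 receptors and docking proteins 3 rose and 3 fell in each strain. Of the 8 genes of the growth hormone arm, 5 rose and 1 fell in C3H and 3 rose and 1 fell in C57B. These p-values are limma's, adjusted over all 16994 genes.

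The effect of hyperoxia differed between the strains for 20 of the 58 genes (34.5%, against 27.4% of all genes), being more positive in C3H for 8 and less positive for 12. The largest by limma were Meg3 (0.98 ± 0.33, adjusted p = 0.0244), Htra3 (0.74 ± 0.22, adjusted p = 0.013) and Cish, a feedback inhibitor of growth hormone signaling (0.49 ± 0.13, adjusted p = 0.00618), on the positive side. On the other side they were Stc2 (-1.14 ± 0.17, adjusted p = 3.86e-06), Mest (-0.97 ± 0.18, adjusted p = 0.000104) and Cdkn1c, an imprinted cell cycle inhibitor (-0.88 ± 0.18, adjusted p = 0.000464). Cdkn1c fell in C3H, from a median of 39.2 to 33.9 FPKM, and rose in C57B, from 39.8 to 59.5. The Meg3 call was lost under quantile normalization (0.78, adjusted p = 0.0704) and with 0.1 added (adjusted p = 0.0591), and the Cish call under median ratio scaling (0.36, adjusted p = 0.0653). In the 24 saline mice alone Stc2 (adjusted p = 0.014) passed by limma and the other 5 did not, with adjusted p from 0.0759 to 0.728.

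With ATG in hyperoxia 3 of the 58 passed by limma (5.17%, against 5.38% of all genes). Phlda2, an imprinted growth restrictor, rose from a median of 2.36 to 4.00 FPKM (0.54 ± 0.14, adjusted p = 0.0156), Cdkn1c fell from 48.8 to 33.4 (-0.50 ± 0.13, adjusted p = 0.0197) and Irs2, an adaptor of the insulin and IGF-1 receptors, fell from 12.5 to 9.80 (-0.33 ± 0.08, adjusted p = 0.0144). The Cdkn1c call was lost without mouse 24 (-0.40, adjusted p = 0.0501) and the Phlda2 call under quantile normalization (0.45, adjusted p = 0.0566). With ATG in room air 0 of 58 passed by limma, as did 4 of all 16994 genes (0.0235%), of which 1248 had an unadjusted p under 0.05.

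For strain at baseline 3 of 56 pathway genes passed by limma, all higher in C3H (5.36%, against 11.8% of all genes). Mest was between 11.0 and 34.6 FPKM in the 6 C3H mice and between 4.09 and 9.79 in the 6 C57B mice (1.73 ± 0.20, adjusted p = 0.000144), without overlap. Stc1 (0.61 ± 0.13, adjusted p = 0.0113) and Stc2 (0.57 ± 0.17, adjusted p = 0.0486) followed, and the Stc2 call was lost when any of 10 of the 12 mice was left out, with limma adjusted p from 0.0208 to 0.107, and with 0.1 added (adjusted p = 0.0566). The Stc1 call was lost within the fit of 48 mice (limma adjusted p = 0.0512). For sex, 4 of 58 were higher and 13 lower in males over all mice (29.3%, against 12.4% of all genes), 6 had a more positive and 0 a less positive hyperoxia effect in males (10.3%, against 4.16%), and at baseline 0 of 56 passed by limma, with 3617 of all 15546 genes at an unadjusted p under 0.05.

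The genes whose log2 FPKM was most like each member's over the 48 lungs are given as a description, since all points share the libraries, their FPKM scale and the strain and air groups. Igfbp5 followed the mesothelial markers Upk3b (Pearson r = 0.90) and Lrrn4 (r = 0.82). After subtraction of the 16 group means, r was 0.86 and 0.83, so the likeness was present among mice of the same group. Both markers fell in hyperoxia in each strain, but the list of 7 mesothelial markers did not move as one, with 2 risen and 3 fallen in C3H and 1 risen and 4 fallen in C57B by limma. Its summed level had higher medians in hyperoxia, 712 against 474 FPKM in C3H and 479 against 377 in C57B, where the Igfbp5 medians were lower. Igfbp2 followed Sparc, a matrix glycoprotein gene (r = 0.77, 0.81 within groups), and Clic3 (r = 0.74, 0.78 within groups). The C3H hyperoxia female of lowest Igfbp2, mouse 33 at 67.8 FPKM, also had the lowest Sparc of its strain and air group, at 941 FPKM.

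**Figure D5:**
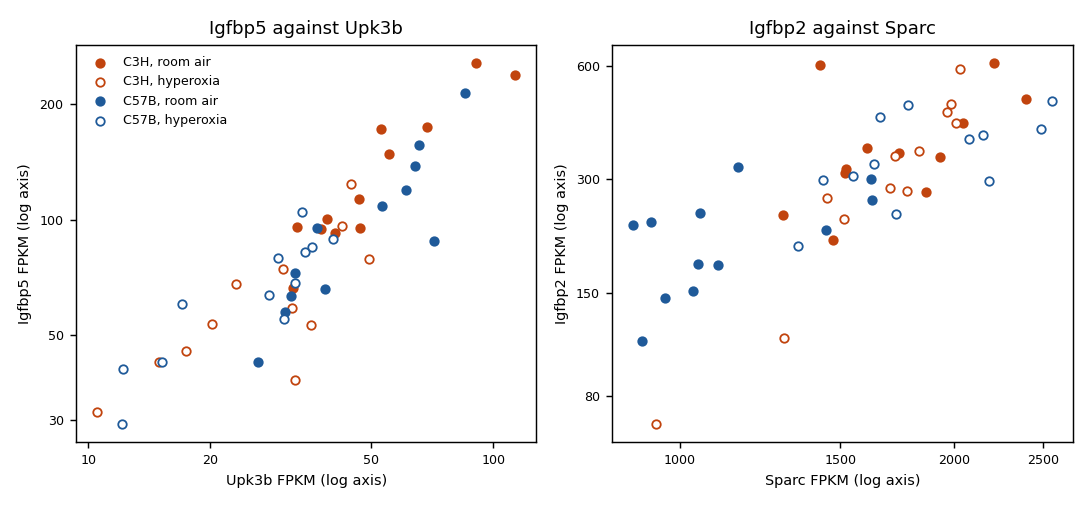
Igfbp5 against Upk3b (left) and Igfbp2 against Sparc (right) in FPKM on log axes, with 1 point per lung, filled for room air and open for hyperoxia, red for C3H and blue for C57B. Within groups r was 0.86 and 0.81, and the point at the lower left of the right panel is mouse 33.

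For the other members, the genes of highest r had a lower r within groups than over all lungs. Igfbp6 was most like Rnase4 (r = 0.91, 0.61 within groups) and Pink1 (r = 0.90, 0.22 within groups). H19 was most like Slc26a10 (r = 0.87, 0.54 within groups), which in C3H had a median of 1.66 FPKM in room air and of 0 in hyperoxia. Igfbp4 was most like Csl (r = 0.86, 0.58 within groups) and Stk32a (r = 0.84, 0.54 within groups), Igf1 like Rhod (r = 0.82, 0.44 within groups) and Cdc16 (r = 0.79, 0.51 within groups), and Igf1r like Fat4 (r = 0.81, 0.49 within groups) and Glg1 (r = 0.81, 0.57 within groups). For Igfbp7, Igfbp3 and Igf2 the highest r was 0.75 with Rab12, 0.74 with Thbd, which encodes thrombomodulin, and 0.68 with Chst1. Among the members themselves, Igfbp5 and Igfbp6 had r = 0.67 (0.76 within groups), while the neighbours H19 and Igf2 had r = 0.51 (0.12 within groups).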

How the data were processed

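The authors prepared polyA-selected libraries, aligned paired reads against mm10 using gSNAP, and obtained FPKM from Cufflinks. The deposited table holds these FPKM values for 48 lungs. The annotation release and the handling of multiply mapped reads are not given in the sources used here, and the depth per library is unknown. Precision therefore rests on how far mice of a group differed. Akap5, at a failed estimate in 7 lungs, was dropped.

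The limma package (3.58.1, R 4.3.3, eBayes with trend) was run on log2(FPKM + 1), keeping genes that reached 1 FPKM in 3 or more mice. All 48 mice in 16 groups were fitted (16994 genes), and the 12 saline room-air mice for baseline contrasts (15546 genes). Benjamini-Hochberg adjustment was over all genes of a fit, and calls were made below 0.05. The fits were tested on simulated data. Members and gene lists were chosen with earlier results of these data known. Pathway genes named were the 3 largest rises and falls past the threshold per contrast (sex excepted), and up to 2 genes of highest r per member, not all of which are reported here. The skeletal muscle comparison and the counts without mouse 37 were added after the values were seen. Overlap means that the highest of the lower group exceeds the lowest of the other. Alternatives were other pseudocounts, filters, scalings, subsets of mice, eBayes without trend and leaving out each mouse.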

Additional observations from a re-analysis of the deposited data

Results flagged for a closer look

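Dixon's ratio was computed for each member in each of the 8 combinations of strain, injection and air, 80 sets of 6 mice, and 9 passed the critical value of 0.625. About 1 set in 20 would be marked if its 6 values came from 1 normal distribution. The sets hold FPKM of both sexes, which need not follow 1, so that rate is no yardstick here. H19 had 3 of them, all at the high end. They were mouse 37 at 8.65 FPKM among C57B saline room-air mice, with the next at 1.35, mouse 2 at 14.6 among C3H saline room-air mice, with the next at 7.32, and mouse 9 at 2.01 among C3H saline hyperoxia mice, with the next at 0.931. Igfbp3 was high in mouse 35 (29.1 FPKM, next 11.5) of C3H ATG hyperoxia and in mouse 3 (74.3, next 56.1) of C3H saline room air, and mouse 3 was also high in Igfbp6 (428, next 204). Igfbp2 was high in mouse 11 (589, next 284) of C3H ATG hyperoxia and low in mouse 33 (67.8, next 346) of C3H saline hyperoxia. Igf1r was low in mouse 44 (5.03, next 5.36) of C57B saline hyperoxia, whose group had a narrow range.

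Among the named genes, effects that differed between groups by the interaction term in limma were those of hyperoxia on Igf1r between the sexes (0.41) and, between the strains, on Meg3 (0.98), Htra3 (0.74), Cish (0.49), Stc2 (-1.14), Mest (-0.97) and Cdkn1c (-0.88). Over the pathway lists 20 of 58 genes differed by strain and 6 by sex. The calls for Igf1r, Meg3 and Cish were lost under another scaling, and those for all of these genes but Stc2 in the 24 saline mice alone. No cause of these differences was tested.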

How the results depend on the processing

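No paired analysis was possible because each mouse has its own number. All 10 members kept the sign of both hyperoxia differences under every setting tried. Calls that named genes lost or gained stand beside their values in the results. Counts that changed are as follows, and their cause was not tested. Counts of genes called were 8 (no filter) and 2 (median ratio scaling) for ATG in room air, with 4 reported, and 40 (no filter), 60 (filter at 0.1 FPKM) and 1915 (within the fit of 48 mice) for sex at baseline, with 104 reported. For strain at baseline the fit of 48 mice called 2982. With the 24 saline mice only, 6169 were called for hyperoxia in C3H, 1880 for strain by hyperoxia, 488 for sex over all mice and 6 for sex by hyperoxia. Leaving out 1 mouse at a time gave 9037 to 9650 calls for hyperoxia in C3H, 10935 to 11382 in C57B, 4184 to 5235 for strain by hyperoxia, 2 to 284 for ATG in room air (highest without mouse 2), 530 to 1247 for ATG in hyperoxia (without mouse 24 and mouse 21), 1723 to 3160 for sex over all mice, 442 to 2016 for sex by hyperoxia (without mouse 21 and mouse 19), 1306 to 4021 for strain at baseline and 20 to 3640 for sex at baseline (without mouse 25 and mouse 2).

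Some sex differences changed sign. Those of Igf1 over all mice (0.26) and of Igf2 (0.21) and Igfbp2 (0.20) by hyperoxia were not near 0 in the main fit. Under quantile normalization H19 was -0.027 for sex by hyperoxia and 0.05 at baseline, Igfbp6 -0.064 and Igfbp7 -0.141 at baseline. Under median ratio scaling H19 was -0.023 for sex by hyperoxia and 0.037 at baseline, and Igfbp7 -0.091 for sex by hyperoxia. In the saline mice Igf1 was -0.003 and Igfbp7 -0.02 over all mice, and Igf2 -0.041 and Igfbp7 -0.069 for sex by hyperoxia. Single mice left out moved H19 at baseline from -0.34 to 0.39 and by hyperoxia from -0.18 to 0.19, Igfbp2 by hyperoxia from -0.013 to 0.33, Igfbp3 at baseline from -0.087 to 0.12, Igfbp6 at baseline from -0.21 to 0.19, and Igfbp7 from -0.073 to 0.14 at baseline and from -0.054 to 0.054 by hyperoxia. The share of calls that were rises was 64% for hyperoxia in C3H, 70.3% for strain by hyperoxia, 73.4% for ATG in hyperoxia, 39% for sex over all mice, 69.4% for sex by hyperoxia, 33.2% for strain at baseline and 35.6% for sex at baseline, and 50.5%, 46.6%, 44%, 54.4%, 52.3%, 51.2% and 55.2% under quantile normalization. FPKM without counts gives no depth limit for a listed 0.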
